A study of Mus musculus with 16 samples.

Results

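The response of the Mmp28 knockout lung to cigarette smoke was read from 8 of the 16 arrays of a mouse whole-lung series, namely every array labelled Mmp28 knockout. They comprised 5 arrays of knockout mice exposed to smoke for 3 months (KO smoke) and 3 arrays of knockout mice kept in room air (KO air). Exposure to reference research cigarettes lasted 3 hours daily, 5 days per week, at 250 tpm/m3 as labelled, and began at 7 to 9 weeks of age, and air controls stayed in the same facility in a similar chamber. The knockout (Mmp28-/-) was on the C57BL/6 background. The other 8 arrays came from C57BL/6 mice, 5 exposed to smoke (WT smoke) and 3 kept in air (WT air), and were used here for the shared estimate of spread and for the difference between genotypes. How the null allele was made is not given in the sources used here. The labels do not say that replicates came from separate animals, so each p-value below refers to the spread among these samples only, which may be technical.

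Mmp28 encodes epilysin, a secreted matrix metalloproteinase made by epithelium and macrophages. Cigarette smoke reaches the airway and alveolar epithelium first, where xenobiotic-metabolising enzymes and glutathione conjugation handle its reactive chemicals. Long exposure in mice is known for gathering macrophages in the air spaces and for remodelling of airway walls and elastic tissue, in which metalloproteinases and their inhibitors take part.

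Mmp28 itself did not separate the genotypes on these arrays. Of its 2 probes, 1 was detected on 0 of 16 arrays. The other was detected on every array, at 5.39 to 6.2 in KO smoke and 5.43 to 6.05 in KO air lungs, against 5.67 to 6.49 in WT smoke and 5.71 to 6.04 in WT air lungs (normalized log2 intensity, the scale of every level below). Where these probes lie relative to the deleted part of the gene is not given in the sources used here, so they do not check the genotype labels. The samples are therefore named by their labels throughout.

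Each array had 14439 to 15238 probes above background among the 8 knockout arrays (detection p under 0.05). The background signal was higher in KO smoke arrays (126 ± 2.71 intensity units, SD, n = 5) than in KO air arrays (114 ± 4.99, n = 3), with no overlap, and an exact permutation test gave a two-sided p of 0.0179, the smallest that 56 splits allow (adjusted 0.0357). KO smoke replicate 3 lay nearest to the air arrays for many of the genes below, and the air array WT air replicate 1 stood apart from its group. The BeadChip and hybridization run of each array are not given, so a batch that ran with smoke cannot be told apart from smoke. Whole-lung markers were in place, with the surfactant gene Sftpc at 13.82 to 14.31 in KO smoke and 14.21 to 14.42 in KO air lungs, and the club cell gene Scgb1a1 at 14.73 to 14.86 in KO smoke and 14.73 to 14.84 in KO air lungs.

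Smoke and air lungs of the knockout differed widely. Of 15282 probes tested, 3247 passed (21.2%; limma with Benjamini-Hochberg adjustment over all probes, adjusted p under 0.05), with 1678 rising (11%) and 1569 falling (10.3%). Most changes were small, with a median size of 0.60 log2 units, while 290 probes rose and 144 fell by at least 2-fold and 13 rose and 17 fell by at least 4-fold. Values of the 5 KO smoke and 3 KO air arrays did not overlap for 2822 of the probes that passed, and for 27.5% of all probes tested. With 1 probe per gene (that with the highest mean over the 8 arrays), 1240 of 10390 genes rose (11.9%) and 1086 fell (10.5%), or 22.4% in either direction, and these shares are the background for each gene group below. In wild-type lungs 16.6% of the same genes rose and 13.7% fell. The count dropped to 390 when the array background signal entered the fit as a covariate. Median scaling in place of quantile normalization gave 3682 calls, of which 76.6% were rises against 51.7% here, and shifted the median of all probes by 0.11, so that changes under it are read relative to that shift.

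The gene with the largest rise was Ear6, an eosinophil-associated ribonuclease. It stood at 10.74, 10.41, 8.91, 10.29 and 9.91 in KO smoke lungs, against 5.59, 5.85 and 5.64 in KO air lungs. The rise was 4.36 ± 0.42 log2 units (SE; adjusted p = 2.35e-05), and the lowest smoke lung, replicate 3, was still far above the highest air lung. The Ear genes are near-identical copies, so its probe may read more than 1 of them. Cxcr1, a receptor for neutrophil-attracting chemokines, stood at 11.83, 11.83, 10.56, 11.65 and 11.33 in KO smoke lungs, against 8.61, 7.88 and 7.93 in KO air lungs, a rise of 3.30 ± 0.32 (adjusted p = 2.35e-05). Orm1, which encodes the acute-phase protein alpha-1-acid glycoprotein, stood at 8.34, 8.53, 7.72, 7.72 and 7.20 in KO smoke lungs, against 4.99, 4.92 and 4.50 in KO air lungs, where it was detected on 1 of 3 arrays, and its rise was 3.10 ± 0.31. Smoke and air lungs did not overlap for any of these 3 genes, which was a condition of their choice among the largest rises.

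The nicotine- and coumarin-metabolising cytochrome gene Cyp2a5 stood at 11.07, 10.86, 11.44, 11.46 and 10.13 in KO smoke lungs, against 9.37, 7.17 and 8.70 in KO air lungs, a rise of 2.58 ± 0.51 (adjusted p = 0.0022). Its 3 other tested probes rose as well, by 2.51, 2.62 and 1.65. Serpina3n, a secreted serine protease inhibitor of the acute phase, stood at 11.30, 11.62, 11.05, 11.35 and 11.71 in KO smoke lungs, against 9.33, 9.43 and 9.49 in KO air lungs, a rise of 1.99 ± 0.19. Igf1, a growth factor made in part by macrophages and fibroblasts, averaged 9.12 ± 0.42 in KO smoke and 7.09 ± 0.56 in KO air lungs (SD, n = 5 and 3), a rise of 2.03. The remaining genes among the 12 largest rises were the clock output gene Dbp and the ciliary gene Nme5, described below, and Spag11b, a gene of a defensin-like peptide (2.16), Zranb3, a DNA repair helicase gene (1.95), Gipc1 (2.05) and Tapbp, the gene of the antigen-loading factor tapasin (1.94). For Gipc1 and Tapbp the rise belonged to 1 probe only. The 3 other Gipc1 probes moved by 0.18, 0.07 and 0.23 and the other Tapbp probe by -0.36, none past the test.

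**Figure D1:**
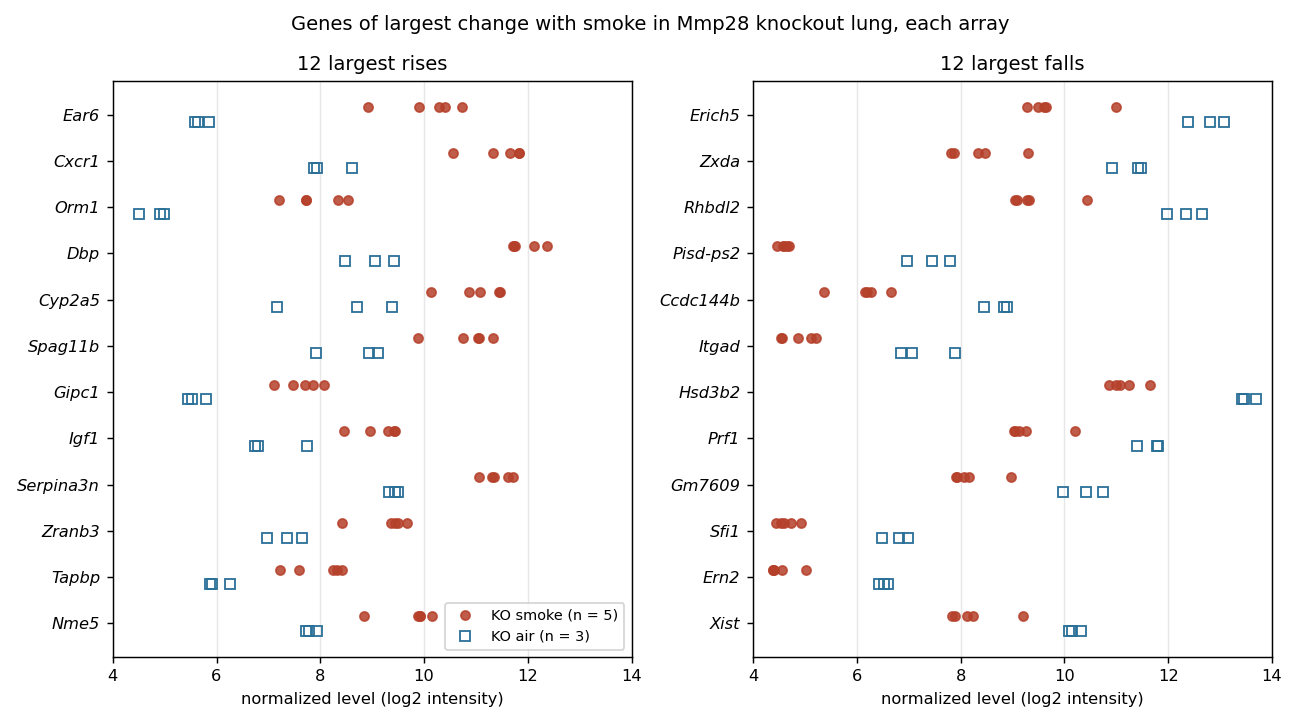
Levels (log2 intensity, horizontal axis) of the 12 genes with the largest rise, left, and the 12 with the largest fall, right, on each of 5 KO smoke arrays (filled circles) and 3 KO air arrays (open squares). Smoke and air values do not overlap for any of the 24 genes, which were chosen for that separation.

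The largest falls covered genes of varied kinds. Erich5 stood at 9.61, 9.28, 10.99, 9.65 and 9.50 in KO smoke lungs, against 12.38, 12.81 and 13.08 in KO air lungs, a change of -2.95 ± 0.41 (adjusted p = 0.000195). Zxda, a zinc finger gene, fell by 2.91, and Rhbdl2, which encodes a rhomboid protease of the membrane, fell by 2.89. Hsd3b2, a steroid dehydrogenase gene, averaged 11.16 ± 0.30 in KO smoke and 13.52 ± 0.15 in KO air lungs (SD, n = 5 and 3), and its 2 tested probes both fell (-2.35 and -2.07). Itgad, the gene of a leukocyte integrin chain, averaged 4.86 ± 0.31 in KO smoke and 7.26 ± 0.55 in KO air lungs, and of its 3 tested probes 2 fell (-2.41 and -2.13) while the change of the third was -0.34.

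Perforin (Prf1), the pore-forming protein of cytotoxic T and NK cells, stood at 9.13, 9.03, 10.21, 9.04 and 9.25 in KO smoke lungs, against 11.40, 11.80 and 11.78 in KO air lungs, a fall of 2.33 ± 0.33 (adjusted p = 0.00026). The second Prf1 probe fell by 0.75. Xist, the RNA that silences 1 X chromosome in female cells, stood at 8.25, 7.88, 9.19, 7.83 and 8.13 in KO smoke lungs, against 10.08, 10.32 and 10.14 in KO air lungs, and its 2 probes fell by 1.92 and 1.31. Xist was detected on all 16 arrays. Of the Y-linked genes, Kdm5d and Eif2s3y were detected on 0 arrays and Uty on 11, at 4.48 to 5.64 over all 16. Pisd-ps2, a pseudogene transcript, was not above background in any KO smoke lung and was at least 5.81-fold lower there (KO smoke mean at the detection floor of each array, KO air mean as measured). Where KO air lungs were at background, the floor was applied to them instead. The other genes of the 12 were Ccdc144b (-2.60), the predicted gene Gm7609 (-2.16), Sfi1, which encodes a centrosome protein (-2.12, against -0.43 at its second probe), and Ern2, an endoplasmic reticulum stress sensor of mucous epithelium (-1.97). The second Sfi1 probe was the brighter of the 2 and did not pass (adjusted p = 0.0731), so the call belonged to 1 probe only. At the probes called, Sfi1 and Ern2 were each above background on 1 of 5 KO smoke arrays, and Itgad on 3 of 5.

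KO smoke replicate 3 was the smoke array nearest to air for 8 of the 12 largest rises and for 10 of the 12 largest falls. Among genes with several tested probes and a change of at least 2-fold, another probe passed in the same direction for 59 of 73 rising genes (80.8%) and for 30 of 38 falling genes (78.9%). For falls of at least 1.5 log2 units the median was -1.98 at the leading probe and -0.71 at the others, in 10 genes. For rises of that size it was 1.69 at the leading probe and 1.25 at the others, in 21 genes. Wild-type lungs moved in the same direction for all 24 genes, with their own adjusted p under 0.05 for 23 of them, the exception being Cyp2a5 (0.95 in WT, adjusted p = 0.179).

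Genes of motile cilia, the beating hairs of airway ciliated cells, gave the most rises among the groups counted here. Of 39 tested genes with symbols of the Cfap, Dna, Drc, Ift, Rsph and Tekt families, a grouping chosen after their values were seen, 24 rose and 1 fell, with a median of 0.76 log2 units against 0.00 over all genes tested. Dnali1, which encodes an axonemal dynein light intermediate chain, stood at 8.10, 8.37, 8.15, 8.30 and 6.95 in KO smoke lungs, against 6.26, 6.18 and 6.62 in KO air lungs, a rise of 1.62 ± 0.31 (adjusted p = 0.00167). Rsph1, a radial spoke head gene, stood at 10.30, 10.49, 10.44, 10.69 and 9.58 in KO smoke lungs, against 8.78, 8.25 and 9.46 in KO air lungs, a rise of 1.47 ± 0.32. KO smoke replicate 5 was the lowest smoke lung for both, and still above every air lung.

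Cfap299, Dnaaf1 and Cfap52 rose by 1.73, 1.64 and 1.61, and Nme5, which encodes a radial spoke protein, rose by 1.93. Dnaaf1 is a dynein assembly factor, and Cfap52 and Cfap299 are cilia- and flagella-associated proteins. The single fall was Dnah11, an outer-arm dynein heavy chain (-0.62). Intraflagellar transport genes, which build cilia of every kind, moved less, as with Ift88 (0.68), Ift172 (0.50) and Ift122 (-0.21, adjusted p = 0.42). Among the 4 tested markers of ciliated cells, Dynlrb2 (1.58) and Tekt1 (1.41) rose, while Foxj1, the transcription factor that sets the motile cilia programme, changed by 0.41 (adjusted p = 0.0702) and Tppp3 by 0.31 (adjusted p = 0.105). In whole lung, more cells of a type and more RNA per cell cannot be told apart.

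The ciliary count was 20 to 26 when 1 array was left out, and 24 without KO smoke replicates 3 and 5. For gene groups and named genes, here and below, the 1 array left out was a knockout array or WT air replicate 1. With the background covariate it was 8 at a median of 0.80. In wild-type lungs the same 39 genes had a median change of 0.33. For 34 of them the signed change was higher in the knockout than in wild type. In air, 8 of the 39 had a higher mean in KO than in WT lungs, with a median difference of -0.27. In smoke the median difference was 0.09. The group's median deviation from the KO air mean was 0.33 and 0.41 on WT air replicates 2 and 3. On WT air replicate 1 it was -0.30. The difference of the responses had an unadjusted p under 0.05 for 6 genes higher in the knockout and 1 lower. Over all genes these shares were 2.6% and 5.08%. The difference passed adjustment for none of the 39.

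**Figure D2:**
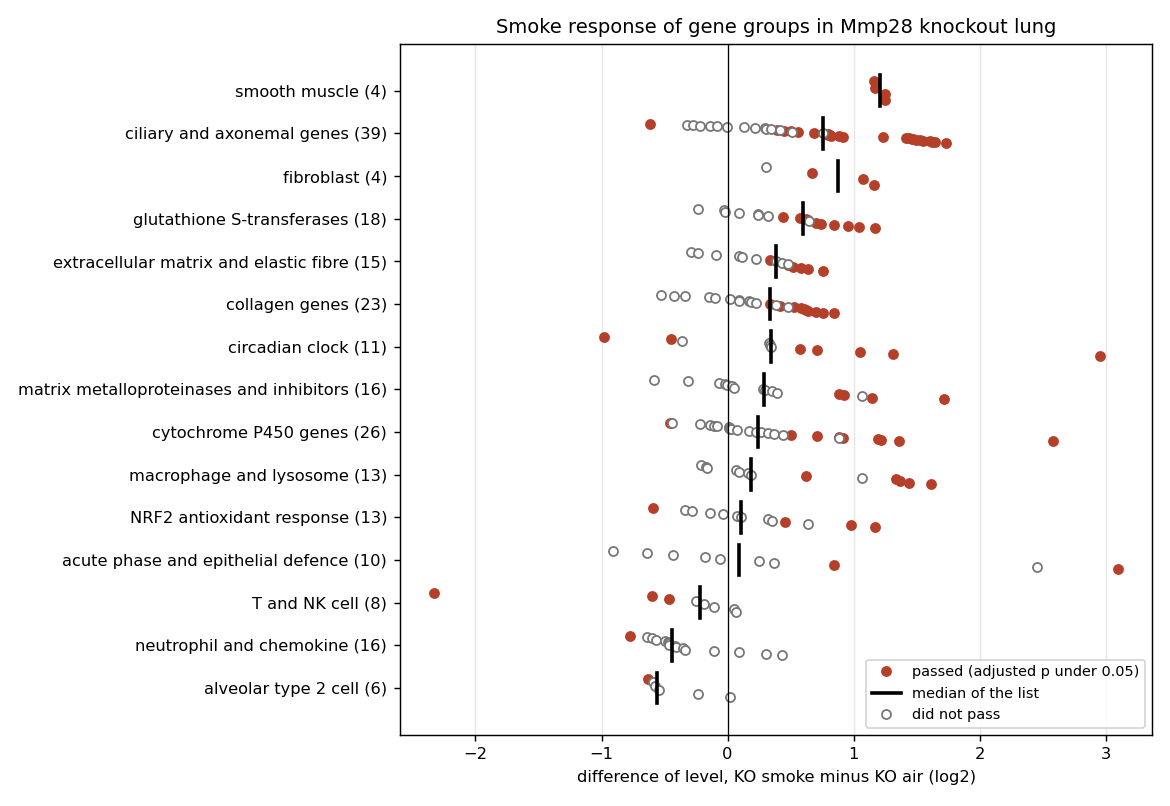
Difference of level between KO smoke and KO air (log2, horizontal axis) for each tested gene of 15 groups, with the number of genes in brackets. Filled points passed the test and the black bar is the group's median, which lies at 1.21 for smooth muscle markers, 0.76 for ciliary genes and -0.44 for neutrophil and chemokine genes.

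Smooth muscle markers rose as a block. Acta2, the smooth muscle actin of airway and vessel walls, stood at 12.36, 12.47, 12.29, 12.50 and 12.63 in KO smoke lungs, against 11.43, 10.93 and 11.23 in KO air lungs, a rise of 1.25 ± 0.17 (adjusted p = 0.000153). Myh11, smooth muscle myosin, rose by 1.25, Tagln, an actin-binding protein of the same cells, by 1.17 (above background on 2 of 3 KO air arrays), and Des, the muscle intermediate filament desmin, by 1.17. These were all 4 of the markers tested, since Cnn1 was above background on 0 of the 8 arrays. The median was 1.21 here and 1.41 in wild type, and it stayed between 1.17 and 1.26 with 1 array left out. Actc1, an actin of heart and embryonic muscle, rose by 1.42, while the heart markers Tnni3 (0.11, adjusted p = 0.635) and Myl7 (0.03, adjusted p = 0.941) did not pass, and Myh6 and Nppa were above background on 0 of the 8 arrays. The mean level of the 3 tested heart markers ran from 6.13 to 6.42 in KO smoke and from 5.23 to 6.08 in KO air lungs. Skeletal muscle markers Acta1, Ckm and Myh4 were above background on none, and Tnnt3 on 1 of the 8. Mylpf, the only skeletal muscle marker tested, was above background on 5 of 5 KO smoke and 0 of 3 KO air arrays. Its response, given below, did not pass (adjusted p = 0.109).

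Of 4 fibroblast markers, 3 rose. Tcf21, a transcription factor of lung lipofibroblasts, rose by 1.16, Inmt, an indolethylamine methyltransferase abundant in lung stroma, by 1.08, and Dpt, the matrix protein dermatopontin, by 0.67. Dpt lost its call without KO air replicate 2 (adjusted p = 0.103). Endothelial markers did not pass in any of 5 genes (median 0.15). Of 4 club cell markers, Aldh1a1, an aldehyde-oxidising enzyme, rose by 0.79, a call lost without any of 4 arrays (adjusted p up to 0.17). The other 3 did not pass, with Scgb3a1 at -0.67 and Scgb1a1 at 0.03. The list's median was 0.03, with its sign turned without KO smoke replicate 4 or KO air replicate 2.

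Matrix genes rose modestly in the knockout. Of 15 tested genes of extracellular matrix and elastic fibres, 6 rose and 0 fell (median 0.39), and of 23 collagen genes, a family chosen after the values were seen that shares 7 genes with that list, 10 rose and 0 fell (median 0.34). Col1a1, the main chain of fibrillar collagen I, stood at 8.73, 8.97, 8.82, 9.00 and 9.08 in KO smoke lungs, against 8.12, 7.91 and 8.46 in KO air lungs, a rise of 0.76 ± 0.14 (adjusted p = 0.00163). Sparc, a collagen-binding matricellular protein, rose by 0.64, and Col5a1, a chain that regulates fibril assembly, by 0.85. Loxl1, an enzyme that cross-links elastin, rose by 0.52, with overlap between groups, and lost its call without any of 6 arrays (0.31 without KO air replicate 2, adjusted p = 0.214). Elastin itself (Eln) stood at 8.67, 8.76, 8.24, 8.99 and 8.93 in KO smoke lungs, against 9.04, 9.03 and 8.95 in KO air lungs, a change of -0.29 ± 0.15 that did not pass (adjusted p = 0.173). The matrix count was sensitive to single arrays, at 2 without KO air replicate 1 or 2, 3 without KO smoke replicate 2 or 4 and 7 without WT air replicate 1, and was 10 with median scaling and 0 with the background covariate.

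The same genes moved further in wild-type lungs. The median over the 15 matrix genes was 0.39 in the knockout and 1.30 in wild type, with 13 rising there, and all 15 had the smaller change in the knockout. For 12 of the 15 the difference of the responses had an unadjusted p under 0.05, against 5.08% of all genes in that direction, and for collagens this held for 15 of 23. None passed adjustment over all probes. Col1a1 had the smallest p, with a response lower by 1.14 in the knockout (95% interval 0.71 to 1.56 lower, adjusted p = 0.366), followed by Eln, lower by 1.12 (0.69 to 1.56 lower). Over all 15282 probes the difference of the responses passed adjustment for 0 in limma, and for 0 under every alternative run. In the main fit 1143 probes had an unadjusted p under 0.05, where 764.1 would be expected by chance. The median half-width of the 95% interval of the difference was 0.46. In the other direction the smallest p belonged to Phf8, a histone demethylase gene (-0.06 in the knockout and -1.01 in wild type, adjusted p of the difference 0.366), and Mylpf, a fast muscle myosin light chain gene (adjusted p of the difference 0.494). Mylpf was not above background in any KO air lung, so its knockout response has only a bound (at least 1.04-fold) and did not pass (adjusted p = 0.109). A missed threshold does not show that the genotypes respond alike.

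The separation lay in the air lungs. Col1a1 was at 8.12, 7.91 and 8.46 in KO air lungs, against 6.90, 7.23 and 6.89 in WT air lungs, whereas in smoke its mean was 8.92 in KO and 8.90 in WT lungs. Eln was at 9.04, 9.03 and 8.95 in KO air lungs, against 8.08, 8.01 and 8.06 in WT air lungs, and at a mean of 8.72 in KO smoke and 8.89 in WT smoke lungs. All 15 genes had a higher mean in KO air than in WT air lungs, by a median of 0.85, and in smoke the median difference was 0.03. The median difference of the responses stayed between -0.92 and -0.68 when 1 knockout array or WT air replicate 1 was left out. It was -0.68 without WT air replicate 1 and -0.79 with the background covariate. The other wild-type arrays, which also enter this difference, were not left out for it. The 15 genes share the same 16 arrays, so they do not count as 15 separate observations. Alveolar type 1 markers, which label the flat gas-exchange epithelium, ran alongside, with 0 of 3 rising in the knockout (median 0.08, with its sign turned without KO air replicate 1 or 2 or KO smoke replicate 4 and under the replicate block) and 3 of 3 in wild type (median 0.94), and what part this has in the matrix result was not tested.

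**Figure D3:**
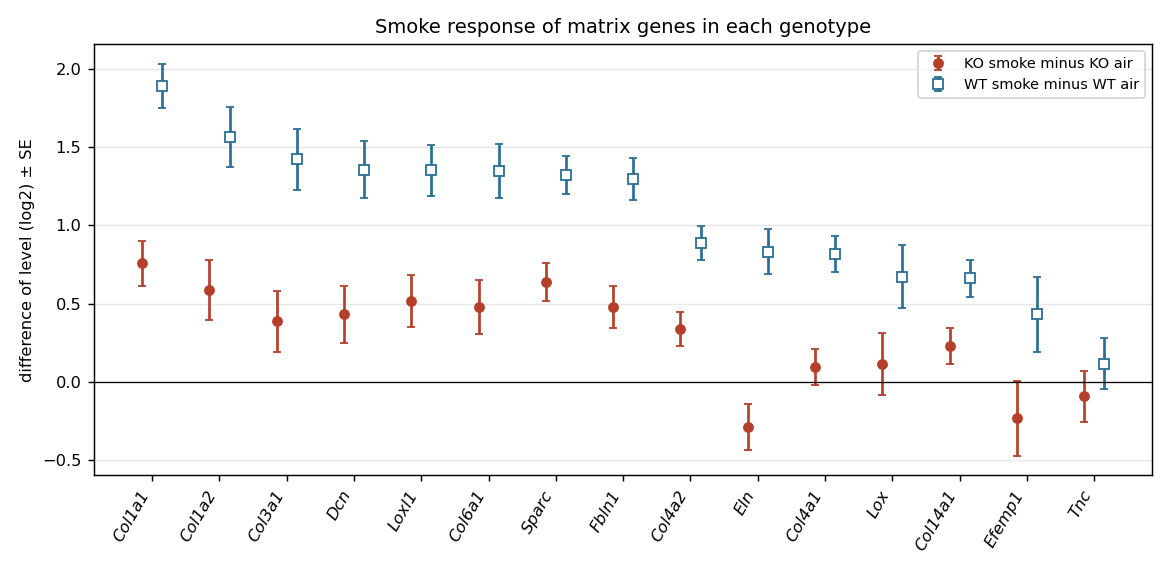
Smoke response (difference of level in log2 ± SE, vertical axis) of the 15 tested matrix genes in knockout lungs (filled circles, KO smoke minus KO air) and in wild-type lungs (open squares, WT smoke minus WT air). Every circle lies below its square, with medians of 0.39 and 1.30, and none of the 15 differences passed adjustment over all probes.

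Among metalloproteinases and their inhibitors, 4 of 16 rose and 0 fell. Timp1, an inhibitor of most metalloproteinases, stood at 9.06, 9.56, 8.46, 8.45 and 8.77 in KO smoke lungs, against 6.87, 7.25 and 7.31 in KO air lungs, a rise of 1.72 ± 0.30 (adjusted p = 0.000929). Mmp23 rose by 1.15 and Mmp2, the gelatinase of stromal cells, by 0.88. The inhibitor gene Timp4 was not above background in any KO air lung and was at least 1.56-fold higher in KO smoke lungs (adjusted p = 0.00115). Mmp12, the macrophage elastase, stood at 9.28, 9.34, 7.43, 8.75 and 9.32 in KO smoke lungs, against 7.97, 7.58 and 7.74 in KO air lungs. Its change of 1.06 ± 0.50 did not pass (adjusted p = 0.147), with KO smoke replicate 3 below every air lung, and without that array it passed (adjusted p = 0.036). In wild type Mmp12 rose by 2.54, and the difference of -1.47 had a 95% interval of -2.98 to 0.04.

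Macrophage and lysosome genes rose in 5 of 13 cases. Gpnmb, a glycoprotein of lipid-laden macrophages, stood at 13.23, 13.17, 12.59, 13.41 and 13.17 in KO smoke lungs, against 11.76, 11.37 and 11.37 in KO air lungs, a rise of 1.62 ± 0.22 (adjusted p = 0.000198), and its 3 other probes rose by 1.88, 1.76 and 1.17. The scavenger receptor gene Marco rose by 1.44, the cathepsin genes Ctsk and Ctsd by 1.36 and 0.63, and Trem2, a lipid-sensing receptor, by 1.34. In a separate list of 3 tested alveolar macrophage markers Marco was the only rise, with Itgax (-0.17) and Krt79 (-0.38) not passing and a median of -0.17. Lyz2 (0.07 at its brightest probe), Ctss (-0.16) and Mrc1 (-0.21), also abundant in macrophages, did not pass. The other Lyz2 probes changed by -0.26 (adjusted p = 0.0664) and by -0.81 (adjusted p = 0.0364), a fall that passed. Genes of macrophage lipid handling such as Lpl and Plin2 had 0 of 8 calls (median 0.01, a sign that turned under several settings). Wild-type lungs called 7 of the same 13 macrophage genes (median 0.35, against 0.18 in the knockout).

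Of the listed neutrophil and chemokine genes, 0 of 16 tested rose and 1 fell (6.25%, against 10.5% of all genes). The list does not include the receptor gene Cxcr1 described above. For Ccl4 the brighter probe changed by -0.46 (adjusted p = 0.0728), and its second probe fell by 0.55 (adjusted p = 0.0129). The fall counted was Il1rn, the interleukin-1 receptor antagonist. It stood at 8.14, 8.17, 7.66, 8.01 and 7.94 in KO smoke lungs, against 8.75, 8.77 and 8.74 in KO air lungs, a fall of 0.77 ± 0.19 (adjusted p = 0.00883). The median of the 16 was -0.44 (-0.22 with median scaling and -0.71 with the background covariate), against -0.01 in wild type. Il6 changed by -0.64 (adjusted p = 0.0709) against 0.60 in wild type, and Cxcl1, a neutrophil chemoattractant, by 0.09 against 1.00. Their differences of response had unadjusted p of 0.00213 and 0.00757 and did not pass adjustment. Falls numbered 3 without KO smoke replicate 3 and 3 without WT air replicate 1.

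Acute-phase and epithelial defence genes split. Orm1 and Lcn2, a siderophore-binding protein of stressed epithelium (0.84), rose, and the other 8 tested did not pass. Lcn2 lost its call without any 1 of the 3 KO air arrays (adjusted p up to 0.0638), and the list's rises numbered 1 to 3 with 1 array left out. Serpina3n, described above, is not in this list. Saa3, an acute-phase apolipoprotein made in the lung, stood at 8.45, 9.40, 7.53, 7.35 and 8.24 in KO smoke lungs, against 5.37, 6.60 and 5.24 in KO air lungs. Its groups did not overlap, yet the change of 2.46 ± 1.08 did not pass (adjusted p = 0.118). The spread was wide in WT air lungs, with replicate 1 at 12.21 and the others at 5.45 and 5.54. Without that array Saa3 passed (adjusted p = 0.0014), as it did in a fit of the 8 knockout arrays alone (adjusted p = 0.00346). The interferon list had 0 of 7 calls, with 2 rises and 1 fall without WT air replicate 1.

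Enzymes that handle smoke chemicals rose in part. Among glutathione S-transferases, a family chosen after the values were seen, 10 of 18 rose and 0 fell (median 0.60, against 0.56 in wild type). Gstm1, a mu-class enzyme, stood at 12.18, 12.24, 12.03, 12.38 and 12.20 in KO smoke lungs, against 10.99, 11.04 and 11.09 in KO air lungs, a rise of 1.17 ± 0.15 (adjusted p = 0.000134). Its second probe changed by 0.25 (adjusted p = 0.539), and probes of these near-identical genes may read more than 1 member. Gstp2 rose by 0.96, Gstm2 by 0.84 and Gstm5 by 0.74. The family's count was 7 to 11 with 1 array left out.

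Of 26 tested cytochrome P450 genes, likewise a family chosen afterwards, 8 rose and 1 fell (median 0.25, against 0.36 in wild type), and the rises numbered 5 without KO air replicate 1. After Cyp2a5 came Cyp2s1, an inducible extrahepatic enzyme (1.36 ± 0.26, adjusted p = 0.00167), and Cyp2e1, known for metabolising ethanol and small solvents (1.22). The fall was Cyp4f16 (-0.46). Cyp2f2, the abundant club cell enzyme, changed by 0.02. Cyp1a1 and Cyp1a2, the classical targets of the aryl hydrocarbon receptor that senses smoke hydrocarbons, were above background on 0 of the 8 arrays, and Cyp1b1 changed by 0.32 (adjusted p = 0.391). From the 7 tested genes of that pathway, Ephx1 (0.56) and Nqo1 (0.51, above background on 2 of 3 KO air arrays) rose. With 1 array left out the count ran from 0 to 2. Ugt1a6a, also in that list, changed by 0.27 at the brightest of its 3 tested probes (adjusted p = 0.348). Its other probes rose by 0.77 and 0.68 (adjusted p = 0.0202 and 0.0434).

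The antioxidant genes governed by NRF2 gave 3 rises and 1 fall among 13 (median 0.11, with its sign turned without KO air replicate 2). Beside Gstm1, the cystine transporter gene Slc7a11 rose by 0.98 and sulfiredoxin (Srxn1) by 0.45, while Gclc, the catalytic subunit of glutathione synthesis, fell by 0.59. Hmox1 (-0.04), Txnrd1 (-0.14) and Gclm (0.11) did not pass. The rises numbered 1 without KO air replicate 2 and 5 without KO smoke replicate 5 or WT air replicate 1, and Gclc lost its call without any of 5 arrays (adjusted p up to 0.252). Heat shock and unfolded protein response genes gave 1 fall among 9, Hsph1 (-0.81), lost without any of 7 arrays.

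Circadian clock genes changed in both directions. In the molecular clock, Arntl (Bmal1) with Clock drives E-box genes, whose products include the repressors of the Per and Cry families, the Rev-erb receptors Nr1d1 and Nr1d2 that repress Arntl, and the D-box binding factors Dbp and Tef. Of 11 tested clock genes, 5 rose and 2 fell. Dbp stood at 11.73, 11.71, 11.75, 12.12 and 12.37 in KO smoke lungs, against 8.47, 9.05 and 9.41 in KO air lungs, a rise of 2.96 ± 0.22 (adjusted p = 3.15e-06). Tef stood at 9.41, 9.06, 9.43, 9.62 and 9.77 in KO smoke lungs, against 7.79, 8.37 and 8.27 in KO air lungs, a rise of 1.31 ± 0.19. Arntl stood at 7.68, 7.45, 7.56, 7.80 and 7.53 in KO smoke lungs, against 8.58, 8.58 and 8.59 in KO air lungs, a fall of 0.98 ± 0.16 (adjusted p = 0.000646). Groups were separate in all 3 genes, with the air lungs of Arntl almost identical.

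Nr1d1 rose by 1.05 and Nr1d2 by 0.71. Per3 was detected in 4 of 5 KO smoke lungs and 0 of 3 KO air lungs and was at least 1.21-fold higher in KO smoke lungs (adjusted p = 0.0163). Clock fell by 0.45, with its second probe at -0.91. Per1 (-0.36), Per2 (0.34), Cry2 (0.34) and Ciart (0.33) did not pass. Without KO air replicate 1 there were 3 rises and 1 fall, Per3 (adjusted p = 0.0553) and Clock (adjusted p = 0.0563) being among those lost, and with the background covariate 3 rises and 0 falls. Wild-type lungs gave 3 rises and 2 falls in the same list, with Dbp higher by 2.17 and the difference of the responses 0.79 (95% interval 0.13 to 1.44, adjusted p = 0.63). The hour of the day at which lungs were taken is not given in the sources used here, and what part it has in the clock result was not tested.

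Promoter windows of 3 clock genes that passed are shown, with 1 gene for each kind of element found, as RefSeq gives them on GRCm38.p6 from 250 bases before to 50 after each start, read along the gene's strand. Capitals mark the E-box CACGTG in the 2 Tef windows (chr15:81802423-81802722 and chr15:81811164-81811463, plus strand), the D-box TTATGTAA in Per3 (chr4:151044616-151044915, minus strand) and the nuclear receptor half-site AGGTCA in Arntl (chr7:113207261-113207560, plus strand).
Tef first start: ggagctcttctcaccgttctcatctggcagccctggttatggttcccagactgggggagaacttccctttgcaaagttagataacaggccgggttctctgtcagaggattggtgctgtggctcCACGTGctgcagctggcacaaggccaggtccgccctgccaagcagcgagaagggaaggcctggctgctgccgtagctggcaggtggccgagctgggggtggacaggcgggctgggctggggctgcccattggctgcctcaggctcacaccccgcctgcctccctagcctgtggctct
Tef second start: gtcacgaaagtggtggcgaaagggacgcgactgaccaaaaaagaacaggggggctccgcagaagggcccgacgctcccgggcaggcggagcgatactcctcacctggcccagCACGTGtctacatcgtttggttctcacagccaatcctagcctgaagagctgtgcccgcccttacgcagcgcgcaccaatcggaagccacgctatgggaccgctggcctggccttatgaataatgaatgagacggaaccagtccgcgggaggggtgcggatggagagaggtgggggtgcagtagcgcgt
Per3: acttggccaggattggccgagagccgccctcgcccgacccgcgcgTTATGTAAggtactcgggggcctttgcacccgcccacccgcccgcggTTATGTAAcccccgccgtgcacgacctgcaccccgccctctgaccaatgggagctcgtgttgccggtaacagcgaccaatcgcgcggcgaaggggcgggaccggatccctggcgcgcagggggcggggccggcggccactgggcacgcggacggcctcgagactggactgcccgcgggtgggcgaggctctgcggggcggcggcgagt
Arntl second start: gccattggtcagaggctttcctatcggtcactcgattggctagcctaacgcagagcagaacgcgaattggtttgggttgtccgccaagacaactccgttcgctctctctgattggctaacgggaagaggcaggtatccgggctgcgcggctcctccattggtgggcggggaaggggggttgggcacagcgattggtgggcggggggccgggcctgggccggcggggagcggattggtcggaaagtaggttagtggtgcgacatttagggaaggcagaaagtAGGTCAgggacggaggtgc
Both strands were searched. The E-box was in windows of 1 of the 7 genes, Tef, and in 7.15% of all 32851 promoter windows. The D-box, as TTACGTAA or TTATGTAA, was in those of 1 gene, Per3, with 2 copies, and in 1.06% of all windows. The half-site was in windows of 3 genes, Arntl, Clock and Nr1d2, and in 16.3% of all windows, so a match of this kind is common. The windows of Dbp and Nr1d1 held none of these letters, which says nothing of elements outside them.

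**Figure D4:**
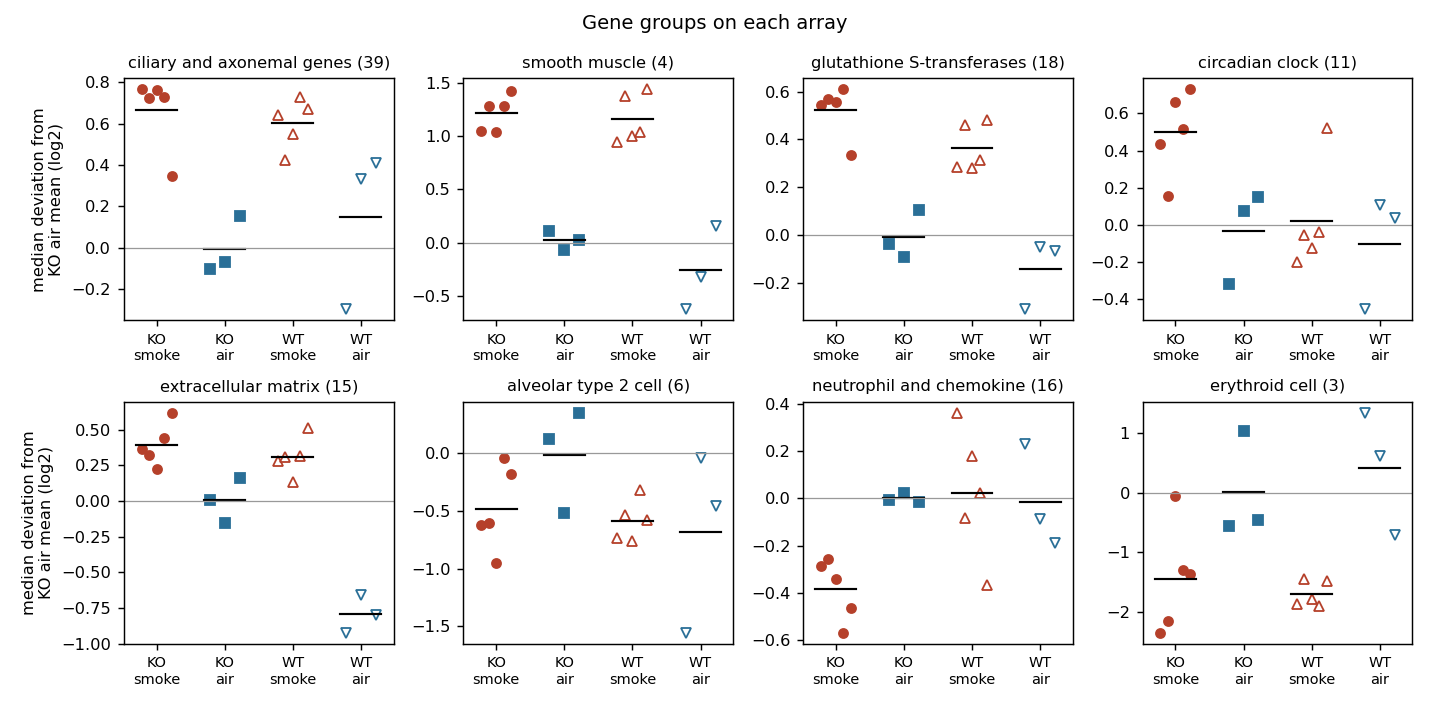
Median deviation of each gene group from its KO air mean (log2, vertical axis) on every array, with the number of genes in brackets, black bars for group means, and knockout arrays filled. Smooth muscle genes lie at 1.04 to 1.43 on KO smoke and -0.07 to 0.11 on KO air arrays, and matrix genes lie at -0.15 to 0.16 on KO air against -0.92 to -0.66 on WT air arrays.

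Among lymphocyte genes, 3 of cytotoxic cells fell, while most others tested did not pass. Of 8 tested T and NK cell genes, 3 fell, Prf1, Klrd1, an NK receptor (-0.60), and Gzma, a cytotoxic granule protease (-0.47), and 0 rose (median -0.22, at -0.05 with median scaling). The T cell genes Cd3d (0.07), Cd3e (-0.19), Cd4 (-0.11) and Cd8b1 (0.05) did not pass, and in wild type 6 of the 8 fell. Klrd1 lost its call without KO air replicate 2 (adjusted p = 0.0617) and Gzma without KO air replicate 3 (adjusted p = 0.122). Of 8 B cell genes, Jchain, the joining chain of secreted antibodies, fell (-0.79) and 0 rose. That 12.5% was near the 10.5% of all genes that fell. Gzma and Jchain were each above background on 1 of 5 KO smoke arrays. Among 7 cell cycle genes, Top2a, the topoisomerase of dividing cells, fell by 1.12 ± 0.14 (adjusted p = 0.000134). The other 6 did not pass at the probe used, though 0 of the 7 changed upward (median -0.23). For Birc5, 1 of these 6, the brightest of 3 probes changed by -0.32 (adjusted p = 0.29). The other Birc5 probes fell by 0.59 and 0.52 (adjusted p = 0.0225 and 0.0447).

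Alveolar type 2 markers, genes of the surfactant-making cell, had a median of -0.56, with 1 of 6 falling. The surfactant lipid transporter gene Abca3 stood at 10.73, 10.70, 10.52, 11.03 and 10.79 in KO smoke lungs, against 11.45, 10.91 and 11.80 in KO air lungs, a fall of 0.63 ± 0.21 (adjusted p = 0.0453). It lost its call without any of 6 arrays (adjusted p up to 0.229), and the list's median was 0.04 with the background covariate. Of 3 tested erythroid markers, Alas2, the haem synthesis enzyme of red cells, was lower in smoke by 1.45 (adjusted p = 0.0464), a call lost without any of 7 arrays. Their mean level ran from 9.76 to 11.39 in KO smoke and from 11.14 to 12.24 in KO air lungs, highest among smoke lungs in replicate 3, and what part blood content has in the falls above was not tested.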

How the data were processed

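Total RNA of whole lung homogenate was hybridized to 1-colour Illumina mouse arrays, 16 in all. The deposited table holds, per the file headers, a signal intensity and a detection p-value per probe and array, without background subtraction or normalization between arrays in its values. The submitters' processing notes name lumi. The deposited processed intensity values, whose sorted values are nearly the same in every column, as after quantile normalization, served as an alternative.

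Background was estimated from the detection p-values and removed with limma 3.58.1 (R 4.3.3, neqc, offset 16, quantile normalization over 16 arrays). Probes with detection p under 0.05 on at least 3 of 8 knockout arrays were tested, 15282 of 25697. Group means were fitted to all 16 arrays, with moderated statistics and Benjamini-Hochberg adjustment over all tested probes. On data simulated for KO smoke against KO air, 200 of 15282 probes were changed. Of those changed by 0.5, 1 and 2 log2 units, 31.3%, 89.6% and 100% were recovered. Many more probes passed in the measured data, so these shares do not give the recovery there. Names came from the platform annotation, which gave 1 symbol for 23978 probes, several for 0 and none listed for 1719. The members and gene lists were chosen with earlier results of these data known. Named genes were the 12 largest rises and falls without overlap, up to 4 or more passing list members, and the smallest p of the difference between genotypes, and families and some further genes were chosen after their values were seen. The number of arrays limits the precision. Sex could not be entered as a covariate.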

Additional observations from a re-analysis of the deposited data

Results flagged for a closer look

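Dixon's test at its 95% critical value was applied within the 5 KO smoke arrays to 85 sets of values and picked out 10 single arrays, where 1 in 20 would be 4.25. KO smoke replicate 3 was the single array in 7 of these and replicate 5 in 3. The sets share the same 5 arrays and most are genes named above, so they are not separate checks. The 10 can therefore not be weighed against 4.25.

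Replicate 3 stood at 8.41 for Zranb3 (9.36 to 9.68 in the other smoke lungs), 10.99 for Erich5 (9.28 to 9.65), 10.43 for Rhbdl2 (9.05 to 9.31) and 10.21 for Prf1 (9.03 to 9.25). It also stood at 8.97 for Gm7609 (7.90 to 8.16), 5.01 for Ern2 (4.38 to 4.56) and 14.73 for Scgb1a1 (14.83 to 14.86). Apart from Scgb1a1, which did not pass the test, each of these values lay on the side of the air lungs. Replicate 5 stood apart in 3 ciliary genes, at 8.85 for Nme5 (9.89 to 10.15), 10.70 for Dynlrb2 (11.61 to 11.75) and 6.95 for Dnali1 (8.10 to 8.37). What sets these arrays apart was not tested.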

How the results depend on the processing

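The count of 3247 probes stayed within 1.5 times under every alternative but 3. It was 390 with array background as a covariate, of which 361 were among the 3247 and 14 of the 3247 called probes took the opposite sign. It was 1522 at an adjusted p under 0.01. With 1 knockout array or WT air replicate 1 left out it was 2123 to 4071. It was lowest without KO air replicate 1 and highest without WT air replicate 1. Elsewhere it ran from 2486 to 4655. The replicate block gave 2486. Same-numbered arrays did not deviate together (correlations of 0.066, 0.043 and 0.026), so the numbers were not taken as pairs. The difference between genotypes gave 0 calls in every setting run, with a smallest adjusted p of 0.151 to 0.697. The difference in detected probes (300.4) was 206.5 to 355.9 with 1 array left out and lost its call in 7 of 8 of these, and was 228.67 at detection p under 0.01, also past no threshold. The background difference was 9.49 to 14.5 and kept its call. Of 83 named genes, the covariate ended the call of 45 and no setting reversed one. Of 73 that passed, 17 lost the call without some knockout array or WT air replicate 1. The other wild-type arrays were left out only for the difference between genotypes. Median scaling gave 3682 calls, 2822 rising and 860 falling. A fit without KO smoke replicates 3 and 5, chosen after seeing the data, gave 3149. The sex covariate was not run.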

Other observations

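Some gene families outside the lists, grouped by symbol after their values were seen and so without a test, were counted in KO smoke against KO air lungs, where 11.9% of all genes rose and 10.5% fell. Of 192 tested Zfp zinc finger genes, 6 rose and 31 fell (median -0.07, against -0.12 in wild type). Of 30 Trim genes, 1 rose and 10 fell (median -0.30). Of 24 splicing factor and hnRNP genes, 0 rose and 6 fell (median -0.19).

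Mitochondrial ribosomal protein genes gave 14 rises and 0 falls among 70 (median 0.21), complex I genes 6 and 0 among 39 (median 0.22), and proteasome subunit genes 6 and 0 among 35 (median 0.14). Cytosolic ribosomal protein genes gave 2 rises and 2 falls among 59. Serpin genes, which encode protease inhibitors, gave 6 rises and 1 fall among 13 (median 0.39, against 0.68 in wild type). Median scaling shifted the median of all probes by 0.11, so the smaller of these medians depend on the scaling.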
